A study of Mus musculus with 19 samples.

Results

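Collagen genes were the entries of the deposited mouse liver expression table whose symbol was Col, a number, the letter a and a number. There were 44 of them among 52110 entries with a gene name. They were divided into 11 fibrillar, 8 basement membrane and 25 other chains. The table held 19 samples of total RNA from livers of wild-type mice in 4 groups, each a pairing of a diet with a procedure. NC sham (n = 5) and NC RIC (n = 5) were fed normal chow, and CDAHFD sham (n = 5) and CDAHFD RIC (n = 4) were fed CDAHFD, a high-fat diet that lacks choline, takes its protein as defined amino acids and is used to induce steatohepatitis. RIC is remote limb ischemic conditioning, in which blood flow to a limb is interrupted, and sham animals had the sham procedure. The sources used here give no strain, age, sex, length of feeding or conditioning schedule. The labels call the samples replicates without tying each to its own animal, so the p-values speak only of the spread among the samples, which may be technical.

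Collagens are proteins of 3 chains wound into a helix, and the chains of a helix come from the same gene or from several genes. Fibrillar collagens form the cables of scar tissue, basement membrane collagens form sheets under epithelia and around vessels, and the other chains bind fibrils, form beaded filaments or span the cell membrane. In liver, stellate cells and portal fibroblasts are the known main sources of fibrillar collagen in fibrosis, while hepatocytes are known for making the chain encoded by Col18a1, from which endostatin is cut. New chains are hydroxylated and folded in the endoplasmic reticulum, exported, and trimmed outside the cell before they assemble.

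Values were FPKM, fragments per kilobase of gene corrected for sequencing depth, so levels of different genes can be set side by side. Depth, estimated from low values of single-exon genes, was 15.9 to 26.4 M reads per sample. Among entries above 0 in both samples of a pair, at most 0.0220% held the same value. Col2a1, Col19a1 and Col26a1 were listed at 0 in every sample. Of the other chains, 11 had a mean of at least 1 FPKM over the 19 samples, 11 lay between 0.1 and 1, and the remaining chains were lower. The 22 chains averaging 0.1 FPKM or more were tested with limma among 17311 genes, on log2(FPKM + 1), and a gene passed at a Benjamini-Hochberg adjusted p under 0.05. The 8 tested fibrillar, 6 basement membrane and 8 other chains were not all members, and 8 of them were under 0.1 FPKM on average in NC sham and reached the minimum through other groups. Counts over the tested chains are therefore descriptions.

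Livers were checked against marker genes of the labelled tissue and of other cell types. The 5 hepatocyte markers summed to 46587 ± 4256 FPKM (SD, n = 5) for sham and 59290 ± 4704 (n = 5) for RIC on normal chow, and to 34386 ± 2226 (n = 5) for sham and 39506 ± 5363 (n = 4) for RIC on CDAHFD. Alb held most of each sum, at 34829 and 48982 FPKM on normal chow and 24729 and 30916 on CDAHFD, sham before RIC. Ttr, Apoa1, Serpina1a and Tat averaged lower in NC RIC than in NC sham. On CDAHFD, Ttr, Apoa1 and Serpina1a averaged lower after RIC and Tat higher. From NC sham to CDAHFD sham Ttr rose, from 2584 to 2785 FPKM, while the other hepatocyte markers fell. The 6 markers of activated stellate cells and myofibroblasts ranged in sum from 17.5 to 34.2 FPKM for sham and 19.6 to 26.1 for RIC on normal chow, and from 111 to 193 for sham and 91.8 to 139 for RIC on CDAHFD. Among these, Timp1 was at 0 in every NC sham sample. The 6 portal fibroblast markers summed to 0.736 to 1.53, 0.567 to 0.858, 5.20 to 11.4 and 4.48 to 6.32 FPKM in the same order, with Gli1 at 0 in NC RIC. The 8 stellate cell markers averaged 18.1 FPKM in sum in NC sham and 43.2 in CDAHFD sham, with Hhip alone of them averaging lower. Markers of other cells also differed between the diets. From NC sham to CDAHFD sham the summed means went from 1.77 to 13.4 FPKM for the 4 cholangiocyte markers, from 21.7 to 82.1 for the 4 macrophage markers, from 14.8 to 33.7 for the 6 of sinusoidal endothelium and from 3.43 to 8.83 for the 4 of vascular endothelium, and the part of these cells in the collagen differences was not tested. Of the 4 cartilage markers Acan was at 0 in all 19 samples and Matn1 and Comp in every NC sample, while Sox9, which is also on the cholangiocyte list, averaged 0.941 FPKM in NC sham and 2.52 in CDAHFD sham. Skeletal muscle markers summed to at most 0.529 FPKM in a sample, with Ckm, Myh4 and Tnnt3 at 0 in every NC sample. In bulk liver, fewer cells of a type and less RNA per cell cannot be told apart.

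On normal chow the collagen transcripts of the liver were mostly Col18a1. In NC sham it made up 72.2% ± 4.50 (SD, n = 5) of the summed collagen FPKM, and in NC RIC 75.1% ± 2.90 (n = 5). On CDAHFD its share was 22.2% ± 6.53 (n = 5) in sham and 34.5% ± 7.87 (n = 4) after RIC. Col3a1 took the largest mean share in CDAHFD sham, 26.4% ± 5.34 (n = 5), against 1.60% ± 0.416 (n = 5) in NC sham. The sum of all 44 chains was 38.9 ± 2.27 FPKM for sham and 35.9 ± 3.41 for RIC on normal chow, and 127 ± 37.7 for sham and 91.3 ± 27.4 for RIC on CDAHFD.

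By class, the fibrillar chains summed to 4.49 ± 0.590 FPKM (SD, n = 5) for sham and 4.02 ± 0.925 (n = 5) for RIC on normal chow. On CDAHFD they summed to 60.0 ± 29.4 (n = 5) for sham and 28.3 ± 16.0 (n = 4) for RIC. The fibrillar sum was thus 13.4-fold higher in CDAHFD sham than in NC sham, and the ranges of CDAHFD sham (29.7 to 102) and CDAHFD RIC (12.2 to 50.4) overlapped. All 8 basement membrane chains summed to 30.6 ± 1.94 FPKM for sham and 28.6 ± 2.64 for RIC on normal chow. On CDAHFD they summed to 45.6 ± 4.60 for sham and 47.1 ± 8.86 for RIC. Among sham samples this full class was 1.49-fold higher on CDAHFD, a rise not seen with median-ratio scaling. Basement membrane chains without Col18a1 summed to 2.48 ± 0.662 FPKM for sham and 1.70 ± 0.356 for RIC on normal chow, and to 19.4 ± 4.12 for sham and 17.0 ± 5.15 for RIC on CDAHFD. The other chains summed to 3.85 ± 1.09, 3.25 ± 0.520, 20.9 ± 4.84 and 15.9 ± 4.76 FPKM in that order. The scatter between samples on CDAHFD was widest in the fibrillar class.

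**Figure D1:**
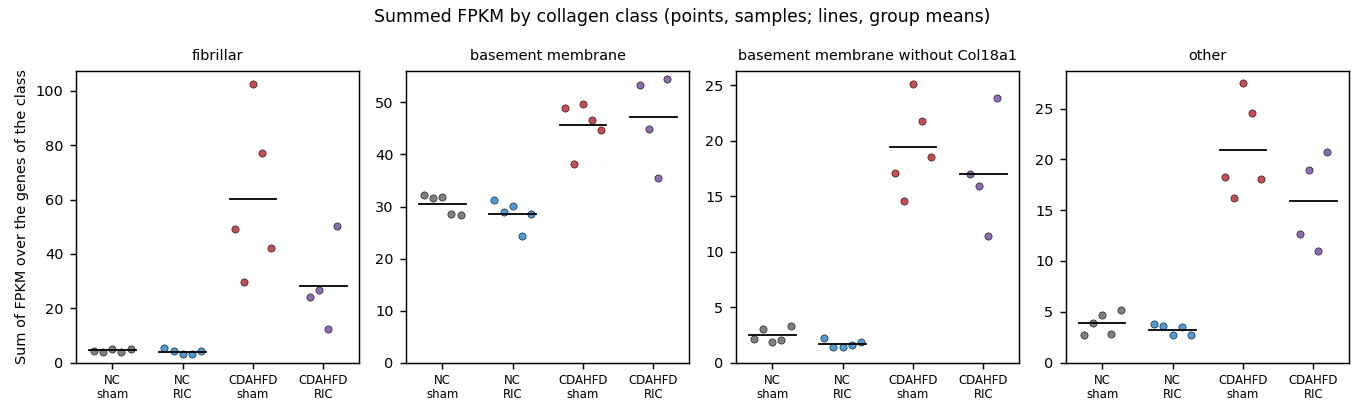
Summed FPKM of the collagen classes (vertical axes, FPKM, starting at 0) in each of the 19 samples (points), by group, with group means as lines. In the fibrillar panel the 5 CDAHFD sham samples range from 29.7 to 102 FPKM and the 4 CDAHFD RIC samples from 12.2 to 50.4, while every NC sample lies below 6 FPKM.

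The first comparison asked how the diet changed collagen transcripts in sham livers. Of the 22 tested chains 19 were higher in CDAHFD sham than in NC sham and 2 were lower, where 59.1% of all genes tested were higher, 7.93% were lower and 67% passed in either direction. The median difference was 0.84 on the log2 scale over the chains and 0.34 over all genes. The groups did not overlap for 18 chains that were higher and 2 that were lower, against 47.2% and 5% of all genes. By class the median differences were 1.51 for the fibrillar, 0.64 for the basement membrane and 0.83 for the other chains. The shift of all genes depended on the scaling. With median-ratio scaling the median of all genes was 0.02 and 5074 genes were higher and 4293 lower, in place of 10223 and 1373, and 16 chains were higher and 3 lower. With quantile normalization 4608 genes were higher and 4863 lower, and 14 chains were higher and 3 lower.

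Type I collagen, the main fibril of scar, is built from the chains of Col1a1 (chr11:94936224-94953042, GRCm38) and Col1a2 (chr6:4504814-4541544). Col1a1 was at 0.0302, 0.0646, 0.0927, 0.0457 and 0.158 FPKM in NC sham samples 1 to 5 and at 8.68, 3.47, 15.7, 10.4 and 5.16 FPKM in CDAHFD sham samples 1 to 5. Every CDAHFD sham sample lay above every NC sham sample, and the difference was 3.02 ± 0.31 (SE) on the log2 scale (limma, adjusted p = 1.1e-07). The normal chow level of Col1a1 rests on an estimated 3.0 to 17.5 reads per sample, so its fold between diets is imprecise. Col1a2 was at 0.238, 0.160, 0.415, 0.152 and 0.403 FPKM in NC sham and at 9.21, 4.48, 18.5, 13.4 and 6.01 FPKM in CDAHFD sham. It too separated the groups completely, with a difference of 3.005 ± 0.29 (adjusted p = 4.8e-08) and group means that differed 37.6-fold.

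Col3a1 (chr1:45311538-45349706) encodes the single chain of type III collagen, which forms thin fibrils together with type I. It was at 0.610, 0.497, 0.652, 0.466 and 0.891 FPKM in NC sham and at 26.0, 17.9, 59.4, 46.1 and 25.2 FPKM in CDAHFD sham. The difference was 4.34 ± 0.29 (limma, adjusted p = 3.3e-10), the largest among the 22 chains on the log2(FPKM + 1) scale, which shrinks differences of low genes. The group means differed 56.0-fold for Col3a1 and 111-fold for Col1a1, the latter over the few normal chow reads given above. Samples 3 and 4 of CDAHFD sham were the highest for Col1a1, Col1a2 and Col3a1, and sample 2 was the lowest for each.

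Type V collagen sits in the core of type I fibrils, and its 3 chains did not move together. Col5a2 (chr1:45374321-45503282) was at 0.0444, 0.0754, 0.120, 0.0287 and 0.154 FPKM in NC sham and at 2.26, 1.86, 4.63, 3.68 and 2.29 FPKM in CDAHFD sham, a rise of 1.82 ± 0.17 on the log2 scale (limma, adjusted p = 2.7e-08). Col5a1 rose by 1.20 ± 0.14 (adjusted p = 5.0e-07), from a mean of 0.255 to 1.93 FPKM. Col5a3 (chr9:20770050-20815067) was at 2.44, 1.84, 2.27, 2.32 and 2.07 FPKM in NC sham and at 0.563, 0.415, 0.525, 0.363 and 0.938 FPKM in CDAHFD sham. It fell by 1.04 ± 0.13 (adjusted p = 1.1e-06) with no overlap of the groups, and its mean was 3.90-fold higher in NC sham. Among the fibrillar chains Col5a3 had the highest mean in NC sham and the sixth highest in CDAHFD sham. Col27a1, a fibrillar chain best known from cartilage, fell by 0.40 ± 0.10 (adjusted p = 0.0014), from a mean of 0.901 to 0.443 FPKM, again without overlap. Both falls passed under each scaling tried. Col11a2 differed by 0.20 (adjusted p = 0.0060), which did not pass with median-ratio scaling or quantile normalization.

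Sequences upstream of 4 genes are shown because Col3a1 and Col6a3 are 2 of the 4 chains that moved in both CDAHFD sham comparisons, with diet and with RIC, while Col5a1 and Col5a3 encode chains of 1 collagen type that moved in opposite directions with diet. Each is the 250 bases before the RefSeq start on GRCm38.p6, 5′ to 3′ on the strand of the gene, and capitals mark a match, on either strand, to 1 of 4 motifs. These were CCAAT (the CCAAT box), GGGCGG (the GC box), TATAAA (the TATA box) and TGANTCA (the AP-1 site).
Col3a1, chr1:45311288-45311537, plus strand: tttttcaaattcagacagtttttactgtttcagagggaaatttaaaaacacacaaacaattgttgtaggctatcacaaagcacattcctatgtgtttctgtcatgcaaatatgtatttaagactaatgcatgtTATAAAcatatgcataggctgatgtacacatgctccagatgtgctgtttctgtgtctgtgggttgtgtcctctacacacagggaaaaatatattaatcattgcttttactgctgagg
Col6a3, chr1:90843972-90844221, minus strand: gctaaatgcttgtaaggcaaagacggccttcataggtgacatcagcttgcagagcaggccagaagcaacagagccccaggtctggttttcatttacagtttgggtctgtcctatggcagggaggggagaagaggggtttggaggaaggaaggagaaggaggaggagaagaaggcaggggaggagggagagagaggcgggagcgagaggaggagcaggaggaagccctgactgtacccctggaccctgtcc
Col5a1, chr2:27886175-27886424, plus strand: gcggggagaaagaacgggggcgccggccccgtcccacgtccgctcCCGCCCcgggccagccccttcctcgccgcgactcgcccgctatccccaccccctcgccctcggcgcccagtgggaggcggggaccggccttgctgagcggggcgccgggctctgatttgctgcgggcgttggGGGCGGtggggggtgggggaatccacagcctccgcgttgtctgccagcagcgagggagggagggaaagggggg
Col5a3, chr9:20815068-20815317, minus strand: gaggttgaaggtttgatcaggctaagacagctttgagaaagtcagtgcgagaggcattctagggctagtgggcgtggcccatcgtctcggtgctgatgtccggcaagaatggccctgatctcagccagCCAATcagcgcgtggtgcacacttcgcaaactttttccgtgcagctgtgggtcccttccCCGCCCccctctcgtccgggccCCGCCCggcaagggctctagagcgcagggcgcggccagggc
The Col3a1 window held 1 TATAAA and the Col6a3 window none of the 4 motifs. The Col5a1 window held 2 matches to GGGCGG, and the Col5a3 window held 2 of these and 1 CCAAT. RefSeq promoters were matched for 35 collagen genes. In the 250 bases before the start, GGGCGG was held by 22 of their 38 promoters (57.9%), against 32.7% of 32851 promoters in all. CCAAT was held by 13 (34.2%, against 33.8%), TATAAA by 5 (13.2%, against 12.4%) and TGANTCA by 1 (2.63%, against 6.75%). A match describes letters and not binding.

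**Figure D2:**
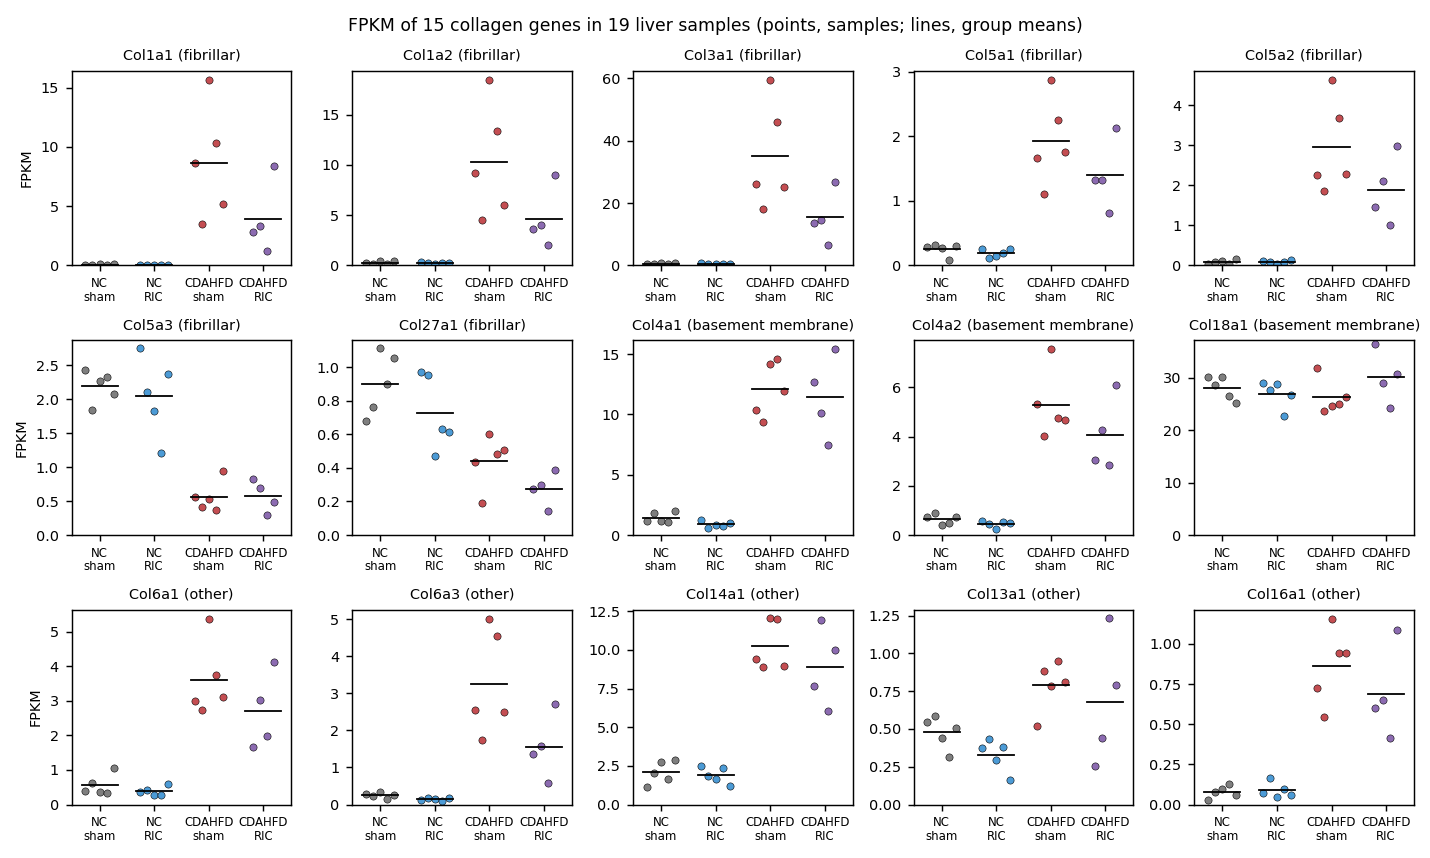
FPKM (vertical axes, linear, starting at 0) of 15 collagen genes in each of the 19 samples (points), by group, with group means as lines. Col5a3 and Col27a1 lie lower on CDAHFD, Col18a1 overlaps in all 4 groups, and for Col1a1, Col1a2, Col3a1 and Col6a3 the CDAHFD RIC points lie within or below the range of CDAHFD sham.

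Among basement membrane chains, Col4a1 and Col4a2 encode the partner chains of the common type IV network. They lie head to head on chr8, at 11198423 to 11312826 and 11312805 to 11449287, and share 22 bases. Col4a1 was at 1.19, 1.79, 1.14, 1.07 and 1.98 FPKM in NC sham and at 10.4, 9.36, 14.2, 14.6 and 11.9 FPKM in CDAHFD sham. Col4a2 was at 0.712, 0.898, 0.402, 0.506 and 0.742 FPKM in NC sham and at 5.33, 4.02, 7.55, 4.78 and 4.67 FPKM in CDAHFD sham. Both separated the groups completely, with differences of 2.42 ± 0.16 (limma, adjusted p = 4.0e-10) and 1.91 ± 0.16 (adjusted p = 5.3e-09). Their ratio, Col4a1 over Col4a2, averaged 2.25 ± 0.480 for NC sham and 2.35 ± 0.480 for CDAHFD sham (SD, n = 5 each).

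Col4a5, a chain of the basement membranes of kidney and other epithelia, rose by 0.80 ± 0.14 (limma, adjusted p = 4.7e-05), and Col15a1, whose product bridges basement membranes and fibrils, rose by 0.49 ± 0.09 (adjusted p = 0.00012). With quantile normalization the difference of Col15a1 was 0.17 and did not pass (adjusted p = 0.068). Col4a3 differed by 0.10 (adjusted p = 0.042). That call was lost in 8 of the fits that left out 1 sample and with quantile normalization, median-ratio scaling and the replicate block, and its exons share 563 bases with an opposite-strand gene. Col18a1 (chr10:77052178-77166548) was at 30.1, 28.7, 30.0, 26.5 and 25.1 FPKM in NC sham and at 31.8, 23.6, 24.6, 25.0 and 26.3 FPKM in CDAHFD sham. The groups overlapped, and the difference of -0.10, with a 95% interval of -0.31 to 0.12, did not pass (adjusted p = 0.42). It passed as lower with median-ratio scaling, at -0.73, and with quantile normalization, at -0.48.

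All 8 tested chains of the other class were higher in CDAHFD sham, against 59.1% of all genes. Col6a2, Col16a1, Col12a1 and Col8a1 averaged under 0.1 FPKM in both NC groups and reached the minimum through the CDAHFD groups. The count is therefore a description. Col14a1 (chr15:55307750-55520803), which encodes a chain that binds the surface of fibrils, was at 1.16, 2.06, 2.74, 1.64 and 2.86 FPKM in NC sham and at 9.40, 8.86, 12.0, 12.0 and 8.95 FPKM in CDAHFD sham. It rose by 1.88 ± 0.18 (limma, adjusted p = 3.7e-08). Type VI collagen forms beaded filaments around cells. Its gene Col6a1 (chr10:76708792-76726168) was at 0.401, 0.623, 0.362, 0.323 and 1.06 FPKM in NC sham and at 3.01, 2.74, 5.38, 3.75 and 3.12 FPKM in CDAHFD sham, a rise of 1.56 ± 0.17 (adjusted p = 2.4e-07). Col6a3 (chr1:90765923-90843971) was at 0.281, 0.232, 0.336, 0.140 and 0.268 FPKM in NC sham and at 2.54, 1.74, 5.01, 4.53 and 2.49 FPKM in CDAHFD sham, a rise of 1.71 ± 0.20 (adjusted p = 4.7e-07). For these 3 genes no NC sham sample reached a CDAHFD sham sample.

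Smaller rises were those of Col6a2 (0.88 ± 0.13), the fibril-associated Col16a1 (0.78 ± 0.09) and Col12a1 (0.23 ± 0.05), and Col8a1 (0.31 ± 0.05), a short chain of vessel walls. With quantile normalization Col12a1 differed by 0.025 and did not pass (adjusted p = 0.69). The transmembrane collagen gene Col13a1 differed by 0.27 ± 0.12 (limma, adjusted p = 0.0497). Its groups overlapped, and the call was lost in 9 of the fits that left out 1 sample and with quantile normalization, median-ratio scaling, a pseudocount of 0.1, no minimum or the replicate block. Chains under 0.1 FPKM were tested only in a fit without a minimum, where 6 of 19 passed as higher in CDAHFD sham, against 37.1% of all 29754 genes in that fit: Col4a4, Col4a6, Col6a5, Col8a2, Col9a3 and Col23a1. No sample reached more than 0.254 FPKM for any of the low chains, and 11 of the 22 low chains were at 0 in at least 10 samples.

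Ratios between chains were taken per sample as a description. Col1a2 over Col1a1, the ratio of the type I chains, was 4.15 ± 2.25 (SD, n = 5) for sham and 6.81 ± 4.28 (n = 5) for RIC on normal chow. On CDAHFD it was 1.20 ± 0.0959 (n = 5) for sham and 1.30 ± 0.242 (n = 4) for RIC. The normal chow ratios rest on the few Col1a1 reads given above. Col5a3 over Col5a1 was 10.9 ± 8.03 for sham and 11.7 ± 4.87 for RIC on normal chow, and 0.319 ± 0.154 for sham and 0.435 ± 0.173 for RIC on CDAHFD, with no overlap between diets. Col6a1 over Col6a3 was 2.29 ± 1.14, 2.64 ± 0.538, 1.18 ± 0.273 and 2.03 ± 1.01 in the same order, and it overlapped between the diets for sham and for RIC. Exact permutation tests of 20 group differences in these and 2 more ratios, Col4a1 over Col4a2 and Col3a1 over Col1a1, gave 6 with p under 0.05 and 0 after Benjamini-Hochberg adjustment (lowest adjusted p = 0.053), where 5 samples against 5 cannot go below p = 0.0079.

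**Figure D3:**
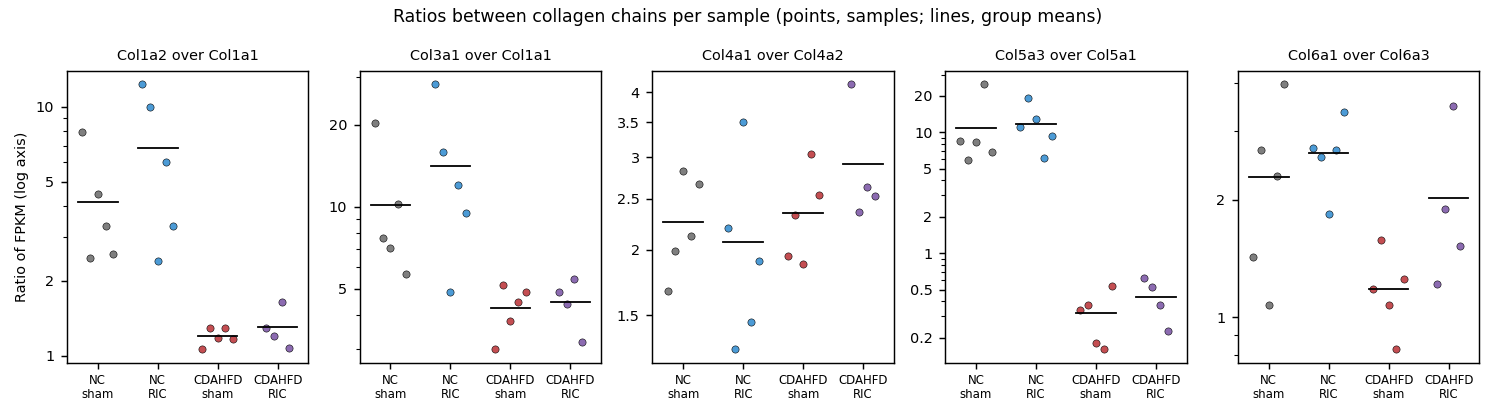
Ratios of FPKM between pairs of collagen genes (vertical axes, no unit, log scale) in each of the 19 samples (points), by group, with group means as lines. Col5a3 over Col5a1 lies above 5 in every NC sample and below 1 in every CDAHFD sample, while Col4a1 over Col4a2 overlaps in all groups.

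The second comparison asked whether RIC changed collagen transcripts on CDAHFD. Of the 22 tested chains 4 were lower in CDAHFD RIC than in CDAHFD sham and 0 were higher, where 14.3% of all genes were lower, 6.41% were higher and 20.7% passed in either direction. The 4 were Col3a1, Col1a2, Col1a1 and Col6a3. At an unadjusted p under 0.05, 7 chains were lower and 0 higher, against 23.6% of all genes lower. The difference was below 0 for 20 of the 22 chains and for 60.3% of all genes, with medians of -0.19 and -0.06. The groups overlapped for every tested chain, whereas 10.4% of all genes were lower without overlap.

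Col3a1 was at 13.6, 14.7, 6.57 and 26.8 FPKM in CDAHFD RIC samples 1 to 4, against 17.9 to 59.4 in CDAHFD sham. It fell by 1.15 ± 0.31 on the log2 scale (limma, adjusted p = 0.014), and its mean was 2.27-fold higher in sham. Col1a1 was at 2.79, 3.35, 1.21 and 8.40 FPKM after RIC and fell by 1.02 ± 0.33 (adjusted p = 0.037). Col1a2 was at 3.61, 4.003, 1.99 and 9.03 FPKM and fell by 0.99 ± 0.31 (adjusted p = 0.031). Col6a3 was at 1.37, 1.59, 0.568 and 2.72 FPKM and fell by 0.74 ± 0.21 (adjusted p = 0.020). For each of these 4 genes samples 1, 2 and 3 of RIC lay below every CDAHFD sham sample, and sample 4 lay within the sham range.

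These calls depended on the scaling, the filter, single samples and the groups fitted together. Col1a1 and Col1a2 did not pass with a pseudocount of 0.1, without a minimum, with quantile normalization or with median-ratio scaling, and Col1a1 also not with a common sum, while Col3a1 and Col6a3 passed in each of these fits. Over all genes 1109 were higher and 2473 lower, but 1469 and 1169 with median-ratio scaling, 1447 and 1323 with a common sum and 1512 and 1473 with quantile normalization. With CDAHFD RIC sample 3 left out 0 chains and 1564 of all genes passed as lower. With RIC sample 4 left out 11 chains and 2543 genes did, and with CDAHFD sham sample 2 left out 7 chains and 2771 genes. Without sham sample 3 only Col3a1 passed (adjusted p = 0.039), and 2 chains passed without sham samples 1 or 4 or RIC samples 1 or 2. When limma was fitted to the 2 groups alone, 0 chains and 1220 genes passed as lower, and the adjusted p of Col3a1 was 0.097. A two-sided exact permutation test over the 9 samples gave p = 0.063 for Col3a1 and p = 0.079 for each of Col1a1, Col1a2 and Col6a3, where the smallest p possible is 0.016.

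The samples differed across chains in the same way. Sham sample 3 was the highest of the 9 CDAHFD samples for 15 of the 22 tested chains, and RIC sample 3 was the lowest for 16. RIC sample 4 was among the 3 highest for 14 chains. Sham sample 3 also had the highest sum of activated stellate and myofibroblast markers, 193 FPKM, while RIC samples 1 and 3 had the lowest, 91.8 and 104. The cholangiocyte markers averaged 13.4 ± 6.42 FPKM (SD, n = 5) in CDAHFD sham and 8.84 ± 6.29 (n = 4) in CDAHFD RIC, and were highest in sham sample 3, at 23.6, followed by RIC sample 4, at 18.2, and lowest in RIC sample 3, at 4.55. Among the activated stellate markers Acta2, smooth muscle actin, was at 8.44 ± 4.09 FPKM (SD, n = 5) in CDAHFD sham and 1.67 ± 0.736 (n = 4) in CDAHFD RIC, while Dcn, decorin, was at 85.3 ± 16.3 and 83.2 ± 17.5. The stellate cell markers summed to 43.2 ± 7.15 and 42.6 ± 6.34 FPKM, with members that differed in direction. Des, Pdgfrb (2.58 and 1.89 FPKM) and Ecm1 averaged lower in CDAHFD RIC than in CDAHFD sham. Lrat (4.81 and 6.41 FPKM), Reln, Rgs5, Ngfr and Hhip averaged higher. The part of cell type markers in the collagen differences was not tested.

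Of the chains that did not pass, Col5a2 (-0.45 ± 0.18, adjusted p = 0.083) and Col8a1 (-0.14 ± 0.05, adjusted p = 0.074) were nearest to the threshold in limma. Among the 6 tested basement membrane chains 0 passed, where 14.3% of all genes were lower and 6.41% higher. Col4a1 was at 12.7, 10.1, 7.44 and 15.4 FPKM after RIC, a difference of -0.10 with a 95% interval of -0.46 to 0.26. Col18a1 was at 36.4, 29.0, 24.1 and 30.8 FPKM, a difference of 0.18 with an interval of -0.05 to 0.41. Col5a3 was at 0.822, 0.697, 0.301 and 0.481 FPKM, a difference of 0.01 with an interval of -0.28 to 0.30. Col14a1 was at 7.63, 11.9, 6.04 and 9.99 FPKM, a difference of -0.21 with an interval of -0.61 to 0.19.

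**Figure D4:**
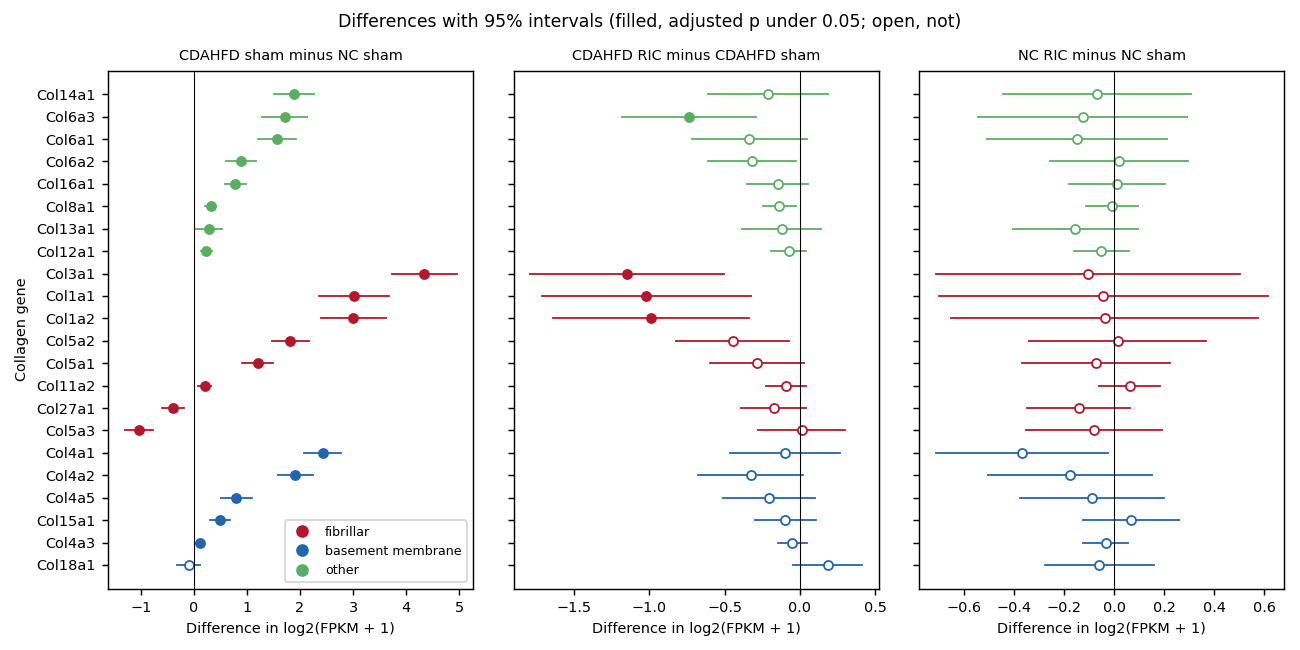
Differences in log2(FPKM + 1) (horizontal axes, a different range in each panel) for the 22 tested collagen genes, with 95% intervals from limma, in 3 comparisons; filled points passed at an adjusted p under 0.05 and colours give the class. In the diet panel the filled points are 19 to the right and 2 to the left of 0, in the panel of RIC on CDAHFD 4 to the left, and in the panel of RIC on normal chow 0.

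On normal chow RIC changed 0 tested chains (limma), where 0.393% of all genes passed (19 higher and 49 lower, but 80 and 54 with median-ratio scaling), and 1 chain had an unadjusted p under 0.05, against 12.7% of all genes. That chain was Col4a1, at 1.23, 0.585, 0.825, 0.778 and 0.962 FPKM in NC RIC, a difference of -0.37 with a 95% interval of -0.71 to -0.02 (adjusted p = 0.36). Its groups overlapped. Col3a1 was at 0.714, 0.390, 0.353, 0.460 and 0.624 FPKM in NC RIC, within or just below the range of NC sham, and its difference was -0.11 with an interval of -0.71 to 0.50.

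Whether the difference with RIC was itself different on the 2 diets was tested as an interaction in limma. No chain passed, against 4.27% of all genes (362 higher and 378 lower, but 610 and 202 with a common sum), and 4 had an unadjusted p under 0.05, against 19.9%. These 4 were Col3a1 (-1.04 ± 0.42, adjusted p = 0.17), Col1a1 (-0.98 ± 0.46, adjusted p = 0.24), Col1a2 (-0.95 ± 0.43, adjusted p = 0.22) and Col6a3 (-0.61 ± 0.29, adjusted p = 0.25). The log2(FPKM + 1) scale shrinks their differences with RIC on normal chow, where their levels were low. Sham means over RIC means were 1.23, 1.73, 1.16 and 1.73 on normal chow in that order. On CDAHFD they were 2.27, 2.20, 2.21 and 2.09. Without CDAHFD sham samples 2 and 5, 3 chains passed as lower, namely Col1a1, Col1a2 and Col3a1, together with 590 of all genes. Samples 2 and 5 were the lowest of CDAHFD sham for each of these 3 chains, so leaving them out by itself enlarges the fall with RIC.

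The diets were also compared among conditioned livers. In CDAHFD RIC against NC RIC, 17 of the 22 tested chains were higher and 2 lower (limma), where 56.1% of all genes were higher and 5.05% lower. These were 9706 and 875 genes, but 4284 and 3436 with median-ratio scaling and 3717 and 3908 with quantile normalization. Differences were 3.30 ± 0.31 for Col3a1, 2.69 ± 0.17 for Col4a1, 2.05 ± 0.31 for Col1a2, 2.04 ± 0.33 for Col1a1 and 1.74 ± 0.19 for Col14a1. The 2 lower chains were again Col5a3, at -0.94 ± 0.14, and Col27a1, at -0.43 ± 0.10. Col11a2, Col4a3 and Col18a1 did not pass. Col18a1 differed by 0.14, but by -0.46, passing as lower, with median-ratio scaling, and by 0.34, passing as higher, when samples were scaled to a common sum.

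The machinery that makes and exports collagen was described with a list of 33 genes, of which 27 were tested. In CDAHFD sham 19 were higher than in NC sham and 3 lower, with a median of 0.74 on the log2 scale, against 59.1% and 7.93% of all genes and a median of 0.34. With the smallest p-values in limma were Sparc, a collagen-binding matrix protein (3.35 ± 0.23, from 3.83 to 50.5 FPKM), Serpinh1, the collagen chaperone HSP47 (2.57 ± 0.22, from 1.79 to 16.1 FPKM), Crtap, a partner of prolyl 3-hydroxylase (1.93 ± 0.17), and Adamts2, which removes the N-terminal propeptide (1.26 ± 0.13). The 3 that fell were Bmp1, which removes the C-terminal propeptide (-0.52 ± 0.13), and the export genes Mia3 (-0.50 ± 0.15) and Sec23a (-0.39 ± 0.15), the last not passing without a minimum or with a common sum. With median-ratio scaling 12 rose and 5 fell.

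With RIC on CDAHFD, 11 of the 27 fell and 3 rose, with a median of -0.20, against 14.3% and 6.41% of all genes and a median of -0.06. Crtap, Plod3, Adamts2 and Ppib did not pass with any of the 3 scalings or with the replicate block, which left 7 lower in each. P4ha1, a catalytic subunit of prolyl 4-hydroxylase, fell by 1.32 ± 0.13 (limma, adjusted p = 1.1e-05), from a mean of 6.76 ± 1.13 FPKM (SD, n = 5) to 2.09 ± 0.412 (n = 4). Its paralog P4ha2 fell by 0.53 ± 0.09, and Serpinh1 fell by 1.19 ± 0.24, from 16.1 ± 5.40 to 6.37 ± 2.04 FPKM. Also lower were Sparc (-0.86 ± 0.24), the lysyl hydroxylase genes Plod2 (-0.74 ± 0.16) and Plod3 (-0.44 ± 0.15), Pcolce, an enhancer of propeptide removal (-0.59 ± 0.14), Crtap (-0.55 ± 0.18), P3h2 (-0.45 ± 0.10), Adamts2 (-0.42 ± 0.14) and the prolyl isomerase gene Ppib (-0.41 ± 0.13). Sec23a (0.56 ± 0.16), Mia3 (0.55 ± 0.16) and Adamts14 (0.34 ± 0.10) rose. Fitted to the 2 groups alone, 4 of the list fell and 0 rose.

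P4ha1 was the only one of the 27 to pass with RIC on normal chow, lower by 0.76 ± 0.13 (limma, adjusted p = 0.012), at 2.997 ± 0.678 FPKM in NC sham and 1.33 ± 0.206 in NC RIC. It did not pass when limma was fitted to those 2 groups alone. Of all genes 0.393% passed with RIC on normal chow. In the interaction 0 of the 27 passed, against 4.27% of all genes. Of 11 collagen receptor genes 9 were tested, and 7 rose with diet, against 59.1% of all genes. Those with the smallest p-values were Ddr1, a receptor kinase (1.68 ± 0.13), the integrin gene Itga1 (0.76 ± 0.08), Lair1, an inhibitory receptor of leukocytes (1.19 ± 0.15), and Mrc2, which takes up collagen (0.72 ± 0.09). With RIC on CDAHFD 1 receptor passed, Itga10, lower by 0.37 ± 0.07, against 14.3% of all genes.

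**Figure D5:**
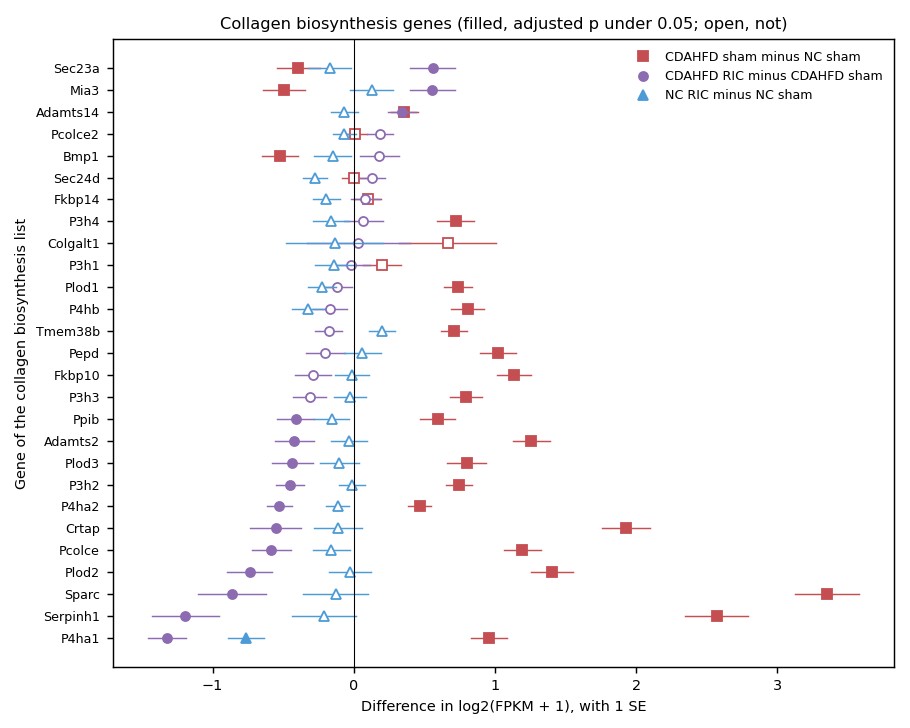
Differences in log2(FPKM + 1) with 1 SE (horizontal axis) for the 27 tested genes of the collagen biosynthesis list (vertical axis) in 3 comparisons; filled symbols passed at an adjusted p under 0.05. With diet 19 lie higher and 3 lower, with RIC on CDAHFD 11 lower and 3 higher, and with RIC on normal chow P4ha1 alone is lower.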

How the data were processed

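Liver RNA of 19 mouse samples in 4 groups was analysed. The authors deposited FPKM per gene and sample. Per the submitters' processing notes, which state no roles, the work used assembly mm10 with HTSeq 0.13.5, HISAT2 2.2.1, R 3.4.1, DESeq2 1.18.1, Trimmomatic 0.38 and FastQC 0.11.9. What made the FPKM, its annotation, strandedness and any batches are not stated there. Entries without a name (3225 of 55335) held 0.123% to 0.204% of the FPKM and were left out.

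Genes averaging 0.1 FPKM or more were fitted with limma 3.58.1 (R 4.3.3) on log2(FPKM + 1), with 1 mean per group over the 19 samples and 15 residual degrees of freedom. Differences on this scale understate changes of low genes. The step was tested on simulated data. Sums, ratios, motifs and figures were made with Python 3.11.15 (pandas 2.3.3, scipy 1.17.1). Alternatives were another pseudocount, other minimums, 3 scalings, a replicate block, fewer groups and samples left out. Positions came from GENCODE vM21 (GRCm38).

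Described in full were the tested chains that passed and averaged at least 1 FPKM, and the 2 highest of each class. The exact tests of chain ratios were added after the values were seen. The members, lists and tests were chosen with earlier results of these data known.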

Additional observations from a re-analysis of the deposited data

Results flagged for a closer look

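In 3 of 100 group and gene pairs, 1 sample stood apart from the others by a gap test that chance alone passes in about 1 in 20 groups. Col11a2 in CDAHFD sham was highest in sample 4, at 0.390 FPKM, with the next sample at 0.217. Col4a5 in CDAHFD RIC was highest in sample 4, at 1.16 FPKM, with the next at 0.602. Col5a1 in NC sham was lowest in sample 4, at 0.0925 FPKM, with the next at 0.274.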

How the results depend on the processing

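Of the gene differences under alternatives, 2895 kept their side of the threshold, 157 lost it and 21 gained it. Another 6 changed sign where the main fit or the alternative passed. A change of sign where neither passed is counted among the 2895. The cause was not tested. The samples that decide the calls with RIC on CDAHFD are named in the report. Low counts limit the chains under 0.1 FPKM and the normal chow level of Col1a1.

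For RIC on CDAHFD, 2 collagen genes passed as lower with a pseudocount of 0.1, without a minimum, with quantile normalization or median-ratio scaling, 0 when limma was fitted to the compared groups only, and 7 without CDAHFD sham samples 2 and 5. Of all genes 1783, 2163, 1473, 1169, 1220 and 2533 were lower in these fits, in that order. That last fit gave 3 lower in the interaction, with 5 lower and 1 higher of the biosynthesis list. It leaves out the lowest CDAHFD sham samples for Col1a1, Col1a2, Col3a1 and Col6a3, which by itself enlarges their fall with RIC. A minimum of 1 FPKM, which tests fewer genes, left 9 collagen genes higher and 1 lower for diet in both procedures, with 10 biosynthesis and 3 receptor genes higher for diet in sham, and with 6 biosynthesis and 0 receptor genes lower for RIC on CDAHFD. The biosynthesis list had 7 lower for RIC on CDAHFD without a minimum (receptors 2), with each of the 3 scalings and with the replicate block, and 4 lower and 0 higher in the compared groups only, where 0 passed for RIC on normal chow. For diet it had 12 higher and 5 lower with median-ratio scaling (receptors 1 lower) and 7 lower with quantile normalization (receptors 2 lower). With a common sum 2 of it were higher in the interaction.

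Median-ratio scaling gave fibrillar sums of 5.41 (NC sham) and 5.07 (NC RIC), basement membrane sums of 36.9 (NC sham), 36.3 (NC RIC) and 34.8 (CDAHFD sham), and other sums of 4.14 (NC RIC) and 16.0 (CDAHFD sham). The basement membrane sums include Col18a1 and were 30.6, 28.6 and 45.6 FPKM in the main values. The higher sum in CDAHFD sham than in NC sham was thus not seen with median-ratio scaling. Where the main fit or the alternative passed, signs changed with quantile normalization for Col13a1 with diet (-0.14 in sham, -0.021 after RIC), Col4a3 (-0.067) and Itga10 (-0.21). With median-ratio scaling they changed for Col18a1 after RIC (-0.46) and Ppib (-0.052).

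Leaving out 1 sample gave, for RIC on CDAHFD, 0 to 11 collagen genes lower, 6 to 12 biosynthesis genes lower and 0 to 3 higher, and 1 to 3 receptors lower. Of all genes 1564 to 2771 were lower and 755 to 1348 higher in these fits. In the interaction they gave 0 to 2 biosynthesis genes higher and 0 to 5 lower, against 229 to 549 and 206 to 521 of all genes. For diet in sham they left 17 to 18 collagen genes higher, against 9829 to 10207 of all genes.

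The deviations of same-numbered samples correlated at -0.16 to 0.14 (median 0.02), with 5 of 27 pairs over 0.1. Differently numbered samples were not compared, so these values cannot decide whether replicate numbers pair the samples. With the replicate block 17 collagen genes were higher with diet, 4 were lower with RIC on CDAHFD, and 1 biosynthesis gene was higher in the interaction.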
